A study of Mus musculus with 2 samples.

Results

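The 10 microRNA genes described here lie together in the proximal part of the imprinted Dlk1-Dio3 region of mouse chromosome 12. Their reads were measured in the gastrocnemius, the large calf muscle. They are Mir673, Mir493, Mir337, Mir540, Mir665, Mir431, Mir433, Mir127, Mir434 and Mir136. They were taken by gene symbol in the GENCODE M21 annotation, and all 10 were found among the 2202 microRNA genes of the tables. The tissue came from male mice of the strain B6CASTF1/J, an F1 hybrid, aged 36 days, with no treatment named in the labels. There is 1 group of 2 libraries, replicates 1 and 2, whose labels describe separate males but carry 1 common donor identifier. With no second condition, the comparisons are between the genes and between the libraries, and biological and technical spread between the libraries cannot be told apart.

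Imprinted genes are expressed mainly from the copy inherited from 1 parent. In the Dlk1-Dio3 region the noncoding RNAs, which include Meg3, Rian, Mirg and the microRNAs, are known to come from the maternal chromosome, and the protein-coding genes Dlk1, Rtl1 and Dio3 from the paternal one. Rtl1, a gene derived from a retrotransposon, is known for its roles in placenta and in fetal and neonatal muscle. MicroRNAs made from the strand opposite Rtl1 are perfectly complementary to its mRNA and are known to direct its cleavage in trans. Among the genes described here, miR-127 is the best known of those that act on Rtl1, miR-431 is known in mouse muscle stem cells as a regulator of Pax7, and miR-434 has been studied in ageing muscle. The deposited counts are not divided by allele, so parental origin was not measured.

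The positions placed the genes in 2 sets of 5. Mir673, Mir493, Mir337, Mir540 and Mir665 lie between the annotated end of Meg3 and Rtl1, and Mir431, Mir433, Mir127, Mir434 and Mir136 lie opposite the coding sequence of Rtl1. All 10 are on the plus strand of mm10. The span runs from 109571990, the start of Mir673, to 109595388, the end of Mir136, or 23399 bases. Mir673 begins 263 bases past the annotated end of Meg3. Gaps between neighbouring genes ran from 167 bases, between Mir540 and Mir665, to 8152 bases, between Mir673 and Mir493. Rtl1 occupies the minus strand from 109589193 to 109600330 and has 2 exons. Its coding sequence is unbroken from 109590172 to 109595403 and holds 1744 codons. Mir127 (ENSMUSG00000070076.2) extends from 109592846 to 109592915, Mir434 (ENSMUSG00000070133.1) from 109594506 to 109594599 and Mir337 (ENSMUSG00000065526.4) from 109585789 to 109585885.

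**Figure D1:**
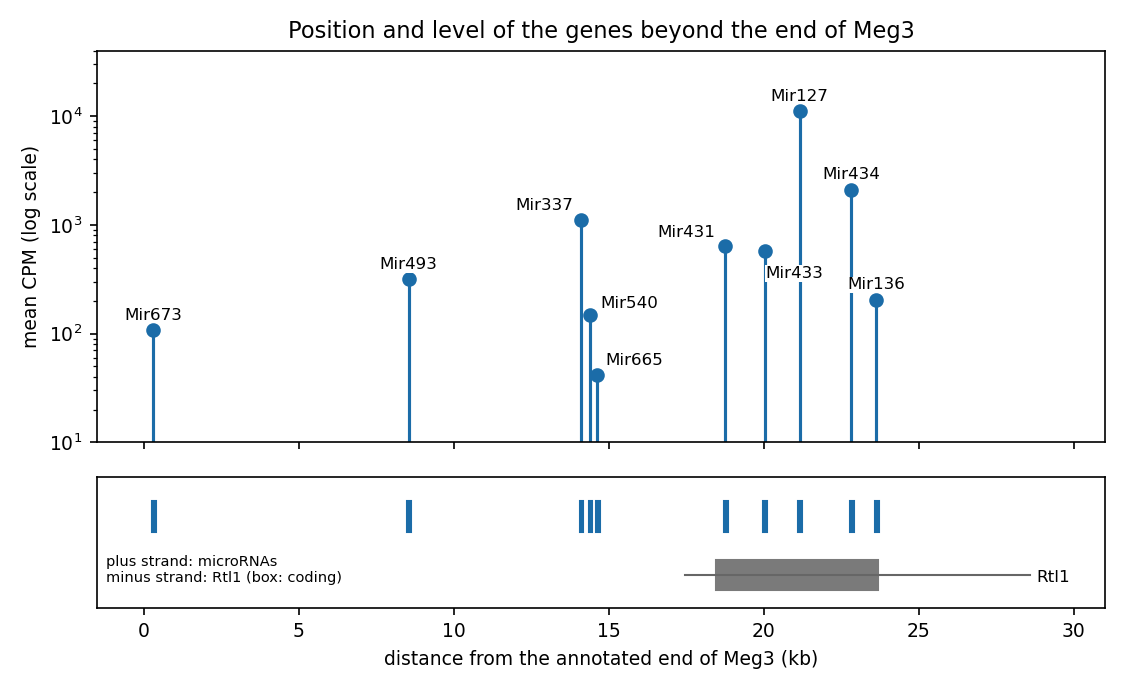
Position and mean level of the 10 genes. The upper panel gives mean CPM over 2 libraries (log axis) against distance from the annotated end of Meg3 in kb, and the lower panel draws the microRNA hairpins on the plus strand and Rtl1 on the minus strand (box, coding sequence). Mir127, the highest at 11134 CPM, stands among the 5 genes opposite the coding sequence, while Mir665, the lowest at 41.2 CPM, stands close to Mir337 and Mir540.

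The mature microRNAs of the 5 genes opposite Rtl1 are shown because each is complementary to the reference Rtl1 transcript over its whole length. CAST alleles were not examined, so the match is shown for the reference sequence only. Those of Mir337, the highest of the other 5 genes, are shown for contrast. The sequences are from RefSeq on GRCm38.p6, on the plus strand of chromosome 12, written 5′ to 3′ with the seed (bases 2 to 8, the part that leads target pairing) in capitals.
miR-431-5p: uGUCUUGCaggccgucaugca
miR-431-3p: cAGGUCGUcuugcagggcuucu
miR-433-5p: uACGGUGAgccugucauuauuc
miR-433-3p: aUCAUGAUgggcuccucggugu
miR-127-5p: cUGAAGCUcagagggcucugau
miR-127-3p: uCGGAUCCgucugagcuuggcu
miR-434-5p: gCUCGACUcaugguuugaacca
miR-434-3p: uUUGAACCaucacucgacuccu
miR-136-5p: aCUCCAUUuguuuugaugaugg
miR-136-3p: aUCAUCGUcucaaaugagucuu
miR-337-5p: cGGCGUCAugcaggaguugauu
miR-337-3p: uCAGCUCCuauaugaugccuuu

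A search of the GENCODE M21 transcripts found the exact complement of all 10 mature sequences of the 5 genes opposite Rtl1 in the Rtl1 transcript. No mature sequence of the other 5 genes had one there. The site of miR-136-3p starts at codon 6 of Rtl1 and that of miR-431-5p ends at codon 1649, so the sites are spread over most of the coding sequence. The site of miR-127-3p covers codons 832 to 839 and those of miR-434-3p and miR-433-3p cover codons 273 to 280 and 1201 to 1208. The Rtl1 site of miR-127-3p is given as DNA on the mRNA strand of Rtl1, with the bases that pair with the seed in capitals.
Rtl1 site of miR-127-3p: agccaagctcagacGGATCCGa
This complementarity follows from the overlap of the genes on opposite strands. Rtl1 mRNA was not measured by these small RNA libraries.

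RefSeq gave 2 mature sequences for each of the 10 genes, 20 in all, of 19 to 26 bases, and placed all 10 hairpins at the GENCODE coordinates. The 20 seeds were all different, so no 2 of these microRNAs form a seed family. Among 1738 mature mouse microRNAs in the table, 18 of the 20 seeds occurred nowhere else. The seed of miR-673-5p was shared with miR-6985-3p, whose gene Mir6985 had 1 count in replicate 1 and 0 in replicate 2. The seed of miR-540-3p was shared with miR-6915-5p, whose gene Mir6915 had 0 and 1. Hairpin length ran from 62 bases for Mir136 to 124 bases for Mir433, and the GC share from 40.3% for Mir136 to 61.5% for Mir673. The counts are per hairpin, so the 5p and 3p arms were not measured apart.

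Counted reads on the strand of a microRNA gene numbered 4134880 in replicate 1 and 3219740 in replicate 2, which is 20.96% and 19.2% of all reads. Reads aligned to several loci made up 70.4% and 73.3% and were listed in a row of their own, read here as outside the gene counts. None of the 10 hairpins shared a stretch of 20 bases with another annotated hairpin on its own strand, and none of their mature sequences occurred in another GENCODE transcript. Loss of their reads to several alignments elsewhere in the genome was not tested. The 10 listed microRNAs of striated muscle held 113186 and 98036 counts, or 2.74% and 3.04% of counted reads. Most of these were from Mir206, with 106820 and 92373 counts. The other listed genes ran from 13 and 11 counts for Mir133a-2 to 3363 and 3057 for Mir486. Every listed gene of endothelium, smooth muscle and fibroblasts, leukocytes, red cells and liver also had at least 10 counts in both libraries, so presence alone does not check the tissue label. CPM, used for levels, is the count of a gene scaled to 1000000 counted reads in the library. The intervals are exact Clopper-Pearson 95% intervals, which cover counting error only.

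All 10 genes had at least 10 counts in both libraries, as did 295 (13.4%) of the 2202 genes of the tables, while 1563 had no count in either. The level that a count of 0 allows was 0.726 CPM for replicate 1 and 0.932 CPM for replicate 2. The lowest gene, Mir665, had 219 and 95 counts. Together the 10 genes held 75032 counts in replicate 1, or 1.81% (95% interval 1.802 to 1.828) of counted reads, and 47095 in replicate 2, or 1.46% (1.45 to 1.48). Their mean share was 1.64% ± 0.249 (SD, n = 2). The median of their mean levels was 445 CPM, beside 199.96 CPM over the 261 genes averaging 10 CPM or more, and 7 of the 10 lay above 199.96 CPM.

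Mir127 led the group. It had 50184 counts (12137 CPM) in replicate 1 and 32619 counts (10131 CPM) in replicate 2, a mean of 11134 ± 1418 CPM (SD, n = 2), and took place 20 of all microRNA genes. The genes next to it in that order were Mir411, from the distal cluster of the same imprinted region, at 12236 ± 2225 CPM, and Mir27b at 9804 ± 784 CPM. Mir127 was below Mir411 in both libraries, with a log2 ratio of Mir127 over Mir411 of −0.19 in replicate 1 and −0.07 in replicate 2. It was above Mir27b in both, at 0.23 and 0.13. Places rank counted reads only, which are read here as leaving out reads aligned to several loci. They therefore do not compare Mir127 fairly with microRNAs of several copies, such as Mir1a-2 at 331 CPM and Mir133a-1 at 24.5 CPM.

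The 4 other genes opposite the Rtl1 coding sequence spread widely below Mir127. Mir434, with 10147 and 5706 counts, had 2454 CPM in replicate 1 and 1772 CPM in replicate 2 (mean 2113 ± 482, place 45). It stood above its neighbours in the order, Mir98 and Mir27a, in replicate 1 and below them in replicate 2. Mir431, at 764 and 524 CPM from 3159 and 1687 counts, averaged 644 ± 169.7 CPM and took place 76. Mir433, at 635 and 516 CPM from 2626 and 1661 counts, averaged 575 ± 84.3 CPM and took place 83. The ranges of Mir431 and Mir433 overlapped. Mir136 had 924 counts in replicate 1 and 597 in replicate 2, which is 223 and 185 CPM (mean 204 ± 26.9, place 129).

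The 5 genes between Meg3 and Rtl1 were led by Mir337. It had 5069 counts (1226 CPM) in replicate 1 and 3149 counts (978 CPM) in replicate 2, with a mean of 1102 ± 175 CPM and place 62, between Mir196a-2 and Mir214. Mir493 followed at 357 and 273 CPM from 1478 and 879 counts (mean 315 ± 59.7). Mir337 therefore stood above Mir431 and Mir433, and Mir493 above Mir136, so the sets overlapped in level. Mir540 had 726 and 396 counts (176 and 123 CPM, mean 149 ± 37.2) and Mir673 had 500 and 306 counts (121 and 95.04 CPM, mean 108 ± 18.3). Mir665 was the lowest gene, at 53.0 and 29.5 CPM (mean 41.2 ± 16.6, place 209).

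**Figure D2:**
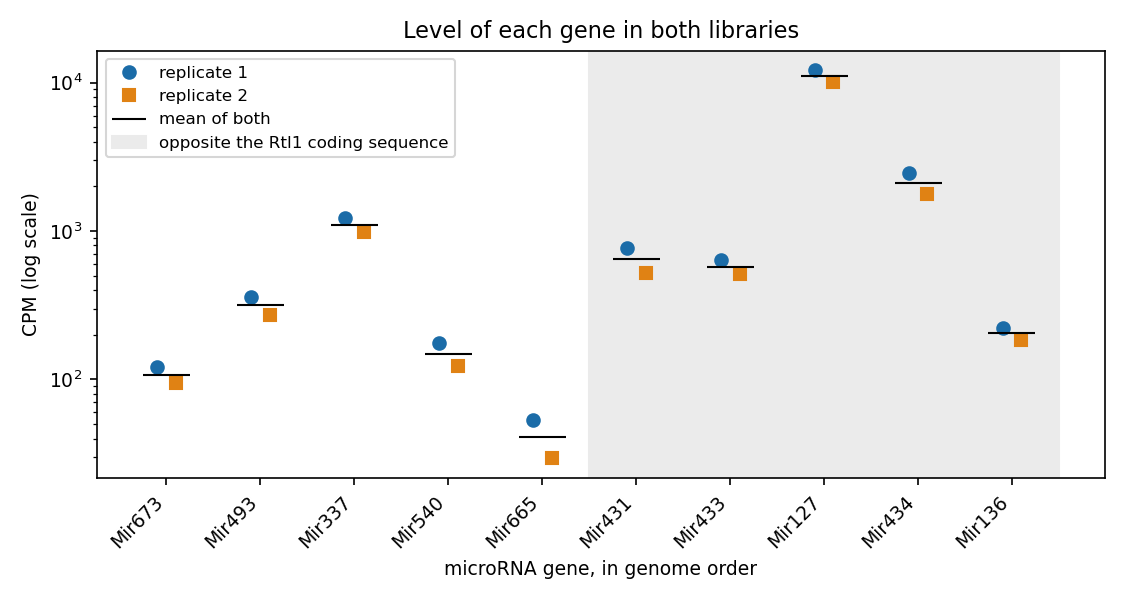
CPM of each gene (log axis) in replicate 1 (circles) and replicate 2 (squares), with the mean of both as a bar and the genes in genome order, with shading over those opposite the Rtl1 coding sequence. All 10 genes had fewer CPM in replicate 2, as did 79.7% of the 261 genes averaging 10 CPM or more. The order of the 10 genes by level was the same in both libraries.

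Between the highest and the lowest gene, Mir127 and Mir665, mean CPM differed 270.0-fold. The order by level was Mir127, Mir434, Mir337, Mir431, Mir433, Mir493, Mir136, Mir540, Mir673 and Mir665 in both libraries. Ratios of counts within a library do not depend on its size. The neighbours come from sorting the same levels, so positive mean ratios follow from the sorting and do not test the order. For 8 of the 9 neighbours in this order the mean log2 ratio exceeded its SD between libraries. The exception was Mir431 over Mir433, at 0.27 in replicate 1 and 0.02 in replicate 2 (mean 0.14 ± 0.17), where the SD exceeded the mean. The next closest were Mir540 over Mir673, at 0.54 and 0.37 (mean 0.45 ± 0.12), and Mir136 over Mir540, at 0.35 and 0.59 (mean 0.47 ± 0.17).

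Genes next to each other on the chromosome differed by up to 19.4-fold. Mir127 exceeded Mir433, 1007 bases before it, by 4.28 ± 0.03 on the log2 scale, the widest step of the 9. Mir434, 1590 bases after Mir127, stood at a log2 ratio of −2.41 ± 0.15 to it, and Mir136, 727 bases further on, at −3.36 ± 0.14 to Mir434. Among the closely spaced genes, Mir540 had a log2 ratio of −2.90 ± 0.13 to Mir337, from which 194 bases separate it. Mir665, 167 bases after Mir540, had a ratio of −1.89 ± 0.23 to Mir540. Mir431 exceeded Mir665 15.9-fold (log2 ratio 4.00 ± 0.21), across the 4039 bases that separate the sets.

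Against Mir127 the other 9 genes ran from a log2 ratio of −2.41 ± 0.15 for Mir434 to −8.13 ± 0.41 for Mir665. Mir136 and Mir433 kept the closest proportion to Mir127 across libraries, with −5.76 and −5.77 for Mir136 and −4.26 and −4.30 for Mir433 in replicates 1 and 2. Mir665 kept it least, at −7.84 and −8.42. All 16 distinct ratios, from neighbours on the chromosome and from Mir127, had the same direction in both libraries. An exact two-sided sign-flip permutation test over 2 libraries gives p = 0.5 for each, raw and after Benjamini-Hochberg adjustment over the 16, and 0.5 is the smallest value it can give.

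Within the group, Mir127 alone held 66.9% of the reads in replicate 1 (95% interval 66.5 to 67.2) and 69.3% in replicate 2 (68.8 to 69.7). Mir434 held 13.5% (13.3 to 13.8) and 12.1% (11.8 to 12.4), and Mir337 held 6.76% (6.58 to 6.94) and 6.69% (6.46 to 6.92). These 3 genes held 87.6% ± 0.638 (SD, n = 2), and the remaining 7 held 12.4% ± 0.638. For 6 of the 10 genes the intervals of the libraries overlapped. The intervals of Mir127, Mir434, Mir431 and Mir665 lay apart, with Mir127 higher in replicate 2 and the other 3 lower. The intervals cover counting error only, and no such count was made over other genes. Compared as reads, the libraries had a chi-square per degree of freedom of 111.5 over 362 genes and 12.6 over the 10 genes. Shares of 1 group add up to the whole, so the rise of Mir127 and the falls of others are not separate results. Mir431 had 4.21% (4.07 to 4.36) and 3.58% (3.42 to 3.75), and Mir665 had 0.292% (0.255 to 0.333) and 0.202% (0.163 to 0.247).

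**Figure D3:**
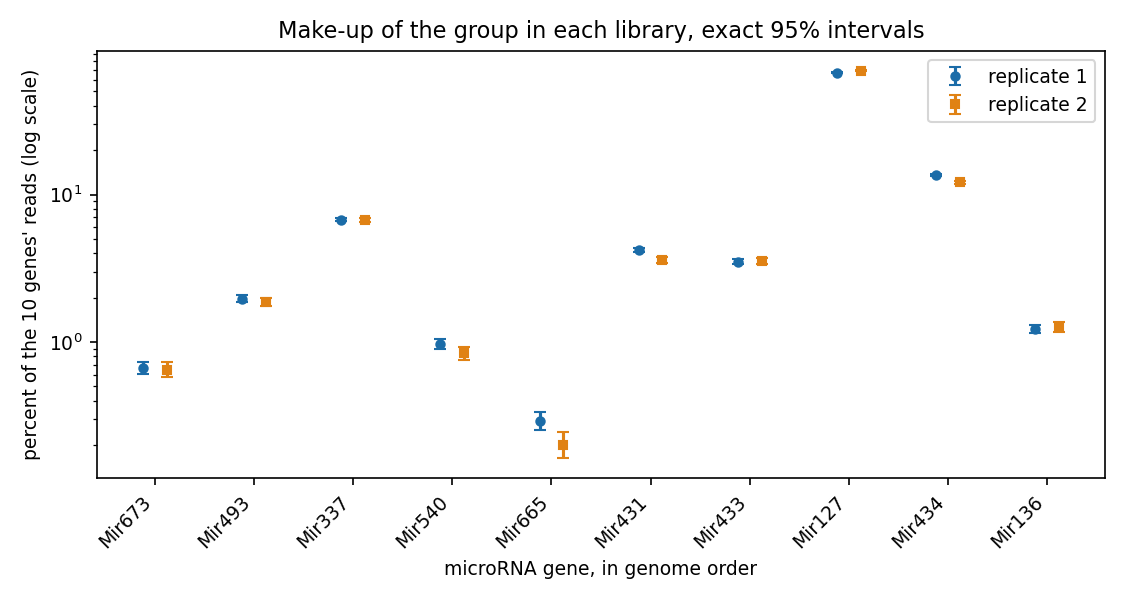
Percent of the 10 genes' reads held by each gene (log axis) in replicate 1 (circles) and replicate 2 (squares), with bars for exact Clopper-Pearson 95% intervals. Mir127 holds 66.9% and 69.3%. The intervals of Mir665, Mir431, Mir434 and Mir127 in the 2 libraries lie apart, and they cover counting error only.

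The 5 genes opposite Rtl1 held 89.3% of the group's reads in replicate 1 and 89.8% in replicate 2. Their summed counts exceeded those of the 5 genes between Meg3 and Rtl1 by 3.10 ± 0.04 on the log2 scale (8.39-fold and 8.76-fold). Without Mir127 the ratio was 2.11 and 2.00, a log2 value of 1.04 ± 0.05. Mir127 gave 50184 of the 67040 counts of the set opposite Rtl1 in replicate 1 and 32619 of 42270 in replicate 2. Mir337 gave 5069 of 7992 and 3149 of 4825 counts of the other set, and it was kept in the ratio without Mir127. The median of the mean levels was 644 CPM for the set opposite Rtl1 and 149 CPM for the other.

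The strand of the reads bears on which gene they belong to. For 8 of the 10 genes no read was counted on the opposite strand in either library, beside 69039 reads on the gene's strand in replicate 1 and 43349 in replicate 2. The same held for 91.2% of the 295 genes with at least 10 counts in both libraries, so 8 of 10 is near the usual share. Summed over all genes, opposite-strand reads made up 19.3% of both strands in replicate 1 and 20.6% in replicate 2. Where 2 microRNA genes overlap on opposite strands, the reads of 1 are counted in this sum as opposite-strand reads of the other. In the column that ignores strand, 988119 and 833648 reads fitted more than 1 gene, so the sum is not a background of antisense reads. The counts of 0 for the 8 genes allow up to 0.00435% and 0.00692% of their reads. For the 5 genes opposite the Rtl1 coding sequence, the opposite strand is that of the Rtl1 mRNA. Of these, Mir431, Mir433, Mir127 and Mir434 had 0 opposite-strand reads in both libraries.

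Mir337 and Mir136 each overlap an annotated microRNA on the other strand. Mir3544 (109585813 to 109585873, minus strand) lies wholly within Mir337, and Mir3071 (109595318 to 109595397, minus strand) spans all 62 bases of Mir136. Mir337 had 5069 reads on its strand and 2 on that of Mir3544 in replicate 1, and 3149 and 2 in replicate 2. Mir136 had 924 reads on its strand and 9 on that of Mir3071 in replicate 1, or 0.965% of both strands (0.442 to 1.82). In replicate 2 it had 597 and 1, or 0.167% (0.00423 to 0.928). Nearly all reads at both places thus lay on the strand of Mir337 and Mir136. In the column that ignores strand both genes had 0 counts in both libraries, because a read there fits 2 genes. One mature sequence of Mir3071, from the minus strand, is shown beside miR-136-5p above because the 2 are complementary over most of their length.
miR-3071-3p: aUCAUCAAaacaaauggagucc

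The rest of the region was read from lists. Of 10 other proximal microRNA genes, Mir341, Mir770 and Mir370 had at least 10 counts in both libraries. Mir341 had 688 and 505 counts (162 ± 6.75 CPM), Mir770, in Meg3, had 148 and 93 (32.3 ± 4.89 CPM) and Mir370 had 123 and 54 (23.3 ± 9.17 CPM). Together the 10 others held 0.0220% ± 0.00217 of counted reads. Mir3070a and Mir3070b, between Mir665 and Mir431, had 0 counts in replicate 1 and 2 and 1 in replicate 2, and each shares a stretch of 20 bases with 1 other hairpin. Mir432, which lies between Mir434 and Mir136, had 0 in both libraries.

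The 10 genes were also set beside the distal microRNA cluster of the region, from Mir379 to Mir3072. They held 33.8% of the reads of both groups in replicate 1 and 34.8% in replicate 2, with the 40 listed distal genes holding the others. One listed name, Mir496b, is annotated on chromosome 19 and had 0 counts in both libraries. The ratio of the 10 genes to the distal list was 0.512 in replicate 1 and 0.534 in replicate 2, a log2 value of −0.94 ± 0.04. By count of genes, 10 of 10 had at least 10 counts in both libraries, against 33 of 40 distal genes. The 10 are only part of the proximal microRNA genes, and of the 10 others listed 3 reached that count. The median of the mean levels was 445 CPM for the 10 genes and 109.7 CPM for the 40 distal names, 4 of which had 0 counts in both libraries. Over the 32 distal genes averaging 10 CPM or more it was 166 CPM. For the 10 other listed proximal genes it was 0.535 CPM, so these contrasts do not describe the proximal part as a whole. The distal reads were led by Mir411 at 12236 ± 2225, Mir379 at 5355 ± 836 and Mir299a at 2405 ± 518 CPM, and only Mir411 stood above Mir127. No test was made of these differences between lists. The lists are also not equally open to loss of reads. In the distal list, Mir411, Mir299a, Mir487b, Mir376c, Mir376b, Mir758 and Mir299b each contain a 20-base run that recurs in at least 1 other annotated hairpin. None of the 10 genes does. Reads aligned to several loci are read here as left out, so those distal genes may be counted too low. The size of any such loss was not measured, and the ratio and medians carry this limit.

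**Figure D4:**
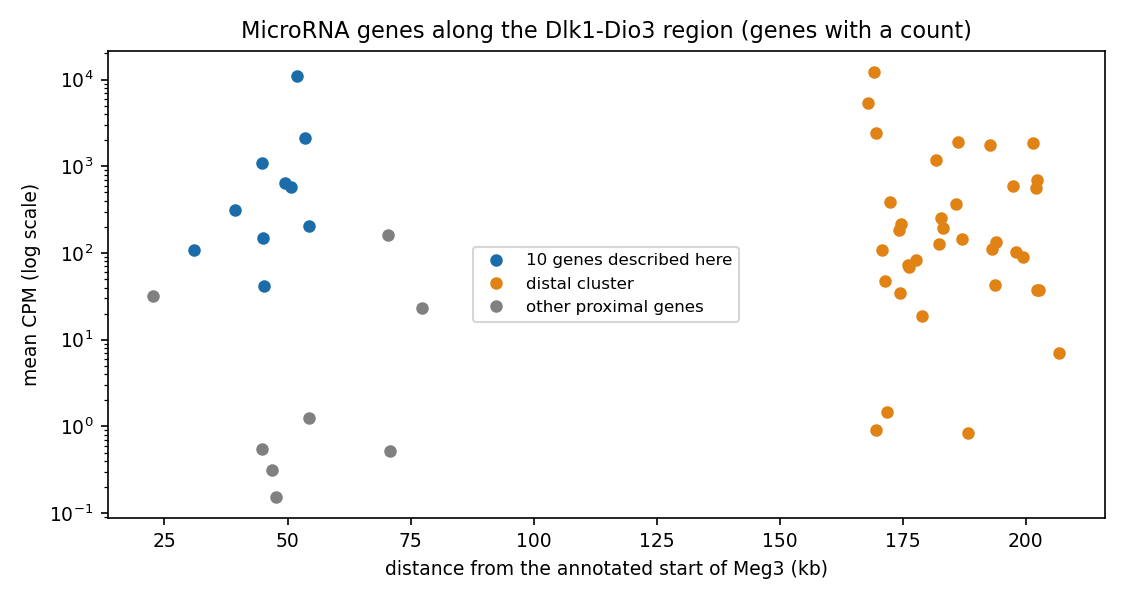
Mean CPM (log axis) of microRNA genes with at least 1 count along the region, against distance from the annotated start of Meg3 in kb, with the 10 genes in blue, the distal cluster in orange and the other proximal genes in grey. Mir127 and Mir411 are the highest genes of their groups, at 11134 and 12236 CPM.

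The libraries were then compared gene by gene, as a log2 ratio of replicate 2 over replicate 1 of CPM + 1 after TMM scaling, which sets most genes level. With 1 library a side these ratios have no replicate check. All 10 genes were below 0, as were 55.9% of the 261 genes averaging 10 CPM or more. The 10 genes share 1 locus and are not independent. Their ratios ran from −0.66 to −0.09 with a median of −0.20, beside a median of −0.05 over all 261. Past 1.2-fold lower were 4 of the 10, beside 24.9% of the 261, and past 1.5-fold lower was 1 of the 10, beside 8.43%. None of the 10 was past 2-fold in either direction, beside 5.36% of the 261.

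Mir665 had the lowest ratio, −0.66, and its counting interval without the pseudocount ran from −1.04 to −0.32. Mir431 followed at −0.38 (−0.46 to −0.29), then Mir540 at −0.34 (−0.53 to −0.17) and Mir434 at −0.30 (−0.35 to −0.26). Mir127 was nearest to 0, at −0.09 (−0.11 to −0.07). Mir136 at −0.10 (−0.25 to 0.05) and Mir673 at −0.18 (−0.39 to 0.03) had intervals that reached past 0. Mir493, Mir337 and Mir433 had −0.22, −0.16 and −0.13. All 10 stayed below 0 under total-count scaling, with a median of −0.37, and under DESeq2 size factors, with a median of −0.15, while the median of all 261 genes moved to −0.21 and 0.0026. Of the 261 genes, 79.7% were below 0 when scaled by total counts and 49% when scaled by DESeq2.

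The 32 distal genes averaging 10 CPM or more had a median of −0.21, and 29 were below 0. Of the other imprinted microRNAs (Mir335, Mir675, Mir483, Mir296 and Mir298), 4 of 5 were below 0, with a median of −0.05. Of 8 striated muscle microRNAs tested, 1 was below 0, with a median of 0.33. Of the 12 listed microRNAs of neurons and glia, all 4 tested were below 0, with a median of −2.17. The list had a summed level of 4545 CPM in replicate 1, against 1280.2 in replicate 2, most of it Mir338, and 6 of its members, the loci of Mir124a and Mir9, had 0 counts in both. The medians of the lists for endothelium, smooth muscle and fibroblasts, leukocytes and red cells lay between −0.03 and 0.33, and the 1 gene of the liver list had −1.78. Within the smooth muscle and fibroblast list, Mir143 and Mir145a had 0.30 and 0.28, but Mir214 and Mir199b had −0.34 and −0.47. Of the 4 leukocyte genes, 1 was below 0, Mir223 at −0.37. The part of such cells in the ratios of the 10 genes was not tested. In whole muscle, fewer cells of a type and less RNA per cell cannot be told apart.

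**Figure D5:**
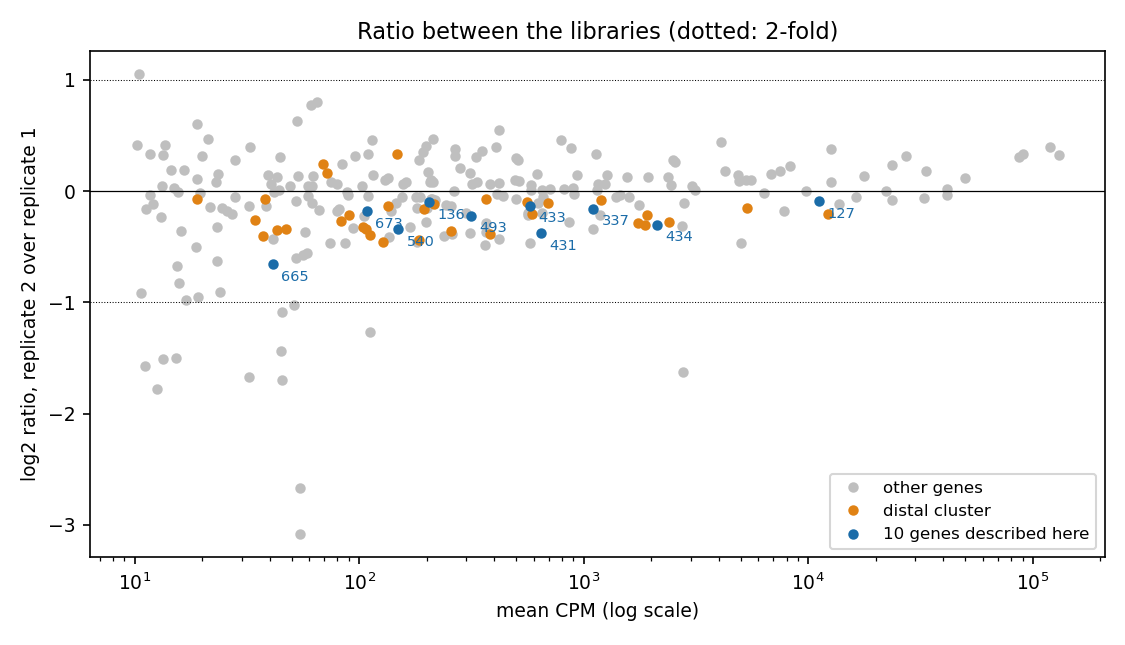
Log2 ratio of replicate 2 over replicate 1 against mean CPM (log axis) for the 261 genes averaging 10 CPM or more, with the 10 genes in blue and labelled by number, the distal cluster in orange and the others in grey. The 10 genes lie between −0.66 and −0.09, all within the dotted 2-fold lines.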

How the data were processed

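Small RNA libraries from 2 male gastrocnemius muscles were analysed as 1 group. The authors deposited whole-number read counts per microRNA gene in 3 columns, which ignore strand, take the gene's strand or take the opposite strand, on mm10 with GENCODE M21, per the labels. Neither aligner nor counter is named in the sources used here. Another 4 rows name no gene (79.0% and 80.8% of all reads) and stayed out of the library sizes.

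The column of the gene's strand was used. CPM, shares and log2 ratios of counts + 0.5 were computed in Python 3.11.15. TMM factors (1.06 and 0.944) came from edgeR 4.0.16 and size factors from DESeq2 1.42.0. Ratios between libraries used CPM + 1 and genes averaging 10 CPM or more. The libraries were compared as reads over 362 genes (chi-square per degree of freedom 111.5), so they are not 1 library in duplicate.

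Mature sequences came from RefSeq (GRCm38.p6), and Rtl1 sites from GENCODE M21 transcripts. Named were all 10 genes, microRNAs opposite them, other proximal genes with 10 or more counts in both libraries, the 3 highest distal genes, and the neighbours in level of the 3 highest. Genes named beside these were chosen after their values were seen. The members and lists were chosen with earlier results of these data known. Depth limits and intervals are given beside the results. Alternatives were the column ignoring strand, other library sizes, scalings, pseudocounts, minimums and folds, and each library left out.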

Additional observations from a re-analysis of the deposited data

Results flagged for a closer look

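Reads on the strand of Mir3071, opposite Mir136, were above the limit of 3 counts that a count of 0 allows in replicate 1, with 9 counts, and not in replicate 2, with 1 count. That strand is also the strand of the Rtl1 mRNA, and the source of these reads was not tested. The single group of 2 libraries is too small for a search for a sample far from the others.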

How the results depend on the processing

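The median level of the 10 genes, 445 CPM, became 309 CPM in the column that ignores strand, 89.9 CPM when all reads were the library size, and 599 CPM when the library size held only genes with no stretch of 20 bases shared with another hairpin. Their summed share, 1.64%, became 2.01%, 0.331% and 2.21% under the same settings, and the share of Mir127 within the group became 74.0% in the column that ignores strand. In that column the counts of Mir337 and Mir136 are 0, so the log2 ratios of Mir337 over Mir493 and of Mir540 over Mir337 turned to −11.16 and 10.07, sizes set by the pseudocount of 0.5. The median ratio between the libraries, −0.20, became −0.37 under total-count scaling. None of the 10 genes was past 2-fold, 1 was past 1.5-fold lower and 4 past 1.2-fold lower, beside 5.36%, 8.43% and 24.9% of the 261 genes. Leaving out replicate 1 or replicate 2 leaves only the values of the other library. The median level was then 394 or 496 CPM and the summed share 1.46% or 1.81%. All 16 ratios between genes kept their direction, which repeats the comparison of the libraries and is no further check. No paired analysis was possible because the 2 libraries form 1 group. The lowest counts, those of Mir665, limit its ratios most.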
